A study of Mus musculus with 15 samples.

Results

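The step studied here ran between ZT4 and ZT23 in innate lymphoid cells of the mouse small intestine, and it was read from 8 of the 15 RNA-seq libraries of the series. Zeitgeber time (ZT) counts hours, with ZT0 by convention at lights on, so that ZT4 lies in the early light phase and ZT23 in the last part of the dark phase. All libraries of these times were taken: 2 of ILC2 at ZT4, 2 of ILC3 at ZT4, 2 of ILC2 at ZT23 and 2 of ILC3 at ZT23. Every library came from female mice that carried no treatment in the labels, and strain and age are not given in the sources used here. Cells of the digested gut of 6 mice per time were pooled, stained and sorted, and poly(A) RNA was sequenced. Whether replicates of a group came from separate pools is not stated, so p-values measure the spread between libraries, which may be technical. Nor is it stated whether ILC2 and ILC3 of a time came from the same pools, so the cell types may not be independent. The labels put all ILC2 libraries in batch 1 and all ILC3 libraries in batch 2, so cell type and batch cannot be told apart, whereas each step was measured within a batch.

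ILC2 are tissue-resident lymphocytes without antigen receptors that make type 2 cytokines, and ILC3 are their counterparts that make IL-22 and IL-17. Both hold the molecular clock, a feedback loop in which CLOCK and BMAL1 drive their own repressors, the period and cryptochrome proteins, through E-box sites. In a second loop the REV-ERB receptors repress and the ROR receptors activate BMAL1 through a shared element. The PAR bZIP factors DBP, TEF and HLF activate and NFIL3 represses genes with D-box sites. In many mouse tissues REV-ERB and DBP transcripts climb after lights on and peak during the light phase.

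The 8 libraries held 5903163 to 20976226 counts, and the replicate 1 libraries of ZT4 were the shallowest in both cell types, with 6543306 counts in ILC2 and 5903163 in ILC3. The sorted types bore their defining genes: Nmur1, the ILC2 receptor for neuromedin U, lay between 96.1 and 257 CPM, counts scaled to a common library size, in the ILC2 libraries and reached at most 8.51 CPM in the ILC3 libraries. Il23r, the receptor through which IL-23 drives ILC3, lay between 65.0 and 145 CPM in the ILC3 libraries and reached at most 5.13 CPM in the ILC2 libraries. Some libraries stood apart. Jchain, which encodes the joining chain of plasma cell antibodies, took 6.17% and 8.99% of the counts of the ILC2 libraries at ZT4, against 15.7% and 1.85% at ZT23, and at most 0.43% in any ILC3 library. Hemoglobin genes took 0.149% of the counts of ILC3 ZT23 replicate 2 and at most 0.0126% elsewhere, and the same library had the largest summed level of 27 epithelial genes, 13657 CPM. That epithelial sum was smallest in both replicate 1 libraries of ZT4, at 244 CPM in ILC2 and 406 CPM in ILC3. At ZT4, same-numbered ILC2 and ILC3 libraries deviated together from their group means (r = 0.625 over 9203 genes of at least 10 CPM, the replicate 1 libraries being shallow in both types), whereas at ZT23 the value was -0.163.

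No gene passed an adjusted p of 0.05 for ZT4 against ZT23 over both cell types in edgeR's quasi-likelihood test, 0 of 14016 genes or 0%. At an unadjusted p under 0.05 there were 290 genes (2.07%), 180 with a higher level at ZT4 (1.28%) and 110 with a lower one (0.785%), where 701 would be 5% of the genes. DESeq2 called 3 genes on the same counts, Adamdec1, Mmp9 and Zswim4, and limma's voom with quality weights called 0. The values below are therefore measurements with their standard errors (SE), and every adjusted p over both types was 0.998 or more. The log2 fold change is that of ZT4 over ZT23, and its median over all genes was -0.092, with 39.2% of genes above 0. The ZT4 libraries lay above the ZT23 libraries without overlap in both cell types for 202 genes (1.44%) and below them for 323 genes (2.3%). For 764 genes (5.45%) both cell types separated but in opposite directions. With 2 libraries a time in each type, such separation also arises when libraries fall in random order, so it is not a test of the step.

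Both marker genes given for the step had higher mean levels at ZT4 in each cell type. Nr1d1, which encodes the heme-bound repressor REV-ERBα, stood at 26.6 and 34.1 CPM in ILC2 at ZT4, against 22.6 and 27.6 CPM in ILC2 at ZT23. Its level was 191 and 166 CPM in ILC3 at ZT4, against 100.1 and 76.5 CPM in ILC3 at ZT23. The ILC3 times were well apart, whereas in ILC2 the lowest ZT4 library lay under the highest ZT23 library. The log2 fold change over both types was 0.65 ± 0.22 (SE), made up of 1.01 ± 0.26 in ILC3 and 0.27 ± 0.26 in ILC2, and the difference of the step, ILC3 minus ILC2, was 0.74 ± 0.37. Nr1d2, which encodes the related receptor REV-ERBβ, showed 230.2 and 129 CPM in ILC2 at ZT4, against 64.4 and 103 CPM in ILC2 at ZT23, and 208 and 135 CPM in ILC3 at ZT4, against 81.3 and 72.4 CPM in ILC3 at ZT23. Every ZT4 library of Nr1d2 lay above every ZT23 library, across both types, and the log2 fold change was 1.13 ± 0.26, 1.10 in ILC2 and 1.15 in ILC3. The replicate 1 libraries of ZT4 carried the highest Nr1d2 values, and without them the log2 fold change was 0.72. Rora, which encodes a receptor that opposes REV-ERB and that ILC2 need for their development, had a log2 fold change of 0.39 ± 0.31. Its times separated in ILC3 but overlapped in ILC2, and the log2 fold change was 0.011 without the 2 shallowest libraries.

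Dbp, which encodes the D-box activator that serves as the standard readout of CLOCK and BMAL1 activity, was measured at 28.5 and 28.0 CPM in ILC2 at ZT4, against 11.5 and 8.32 CPM in ILC2 at ZT23. In the other cell type it was measured at 19.9 and 23.2 CPM in ILC3 at ZT4, against 15.5 and 8.89 CPM in ILC3 at ZT23. All 4 ZT4 libraries lay above all 4 ZT23 libraries, and the log2 fold change was 1.16 ± 0.30, 1.51 ± 0.42 in ILC2 and 0.82 ± 0.41 in ILC3. It was 1.22 with the 2 shallowest libraries left out. Tef, a second D-box activator, separated the times in ILC2, with 42.0 and 45.9 CPM in ILC2 at ZT4, against 27.6 and 28.4 CPM in ILC2 at ZT23, but not in ILC3, with 24.2 and 39.0 CPM in ILC3 at ZT4, against 45.6 and 29.2 CPM in ILC3 at ZT23. Its log2 fold change was 0.20 ± 0.28 over both types and 0.65 ± 0.34 in ILC2 alone. Hlf, the third activator, and Nfil3, the D-box repressor without which innate lymphoid cells do not form, had log2 fold changes of 0.46 ± 0.31 and 0.38 ± 0.26, with overlapping times in ILC2. Nfil3 came to -0.0091 when the 2 shallowest libraries were left out. All 4 genes of this family were positive, where 39.2% of all genes were, with a median of 0.42.

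**Figure D1:**
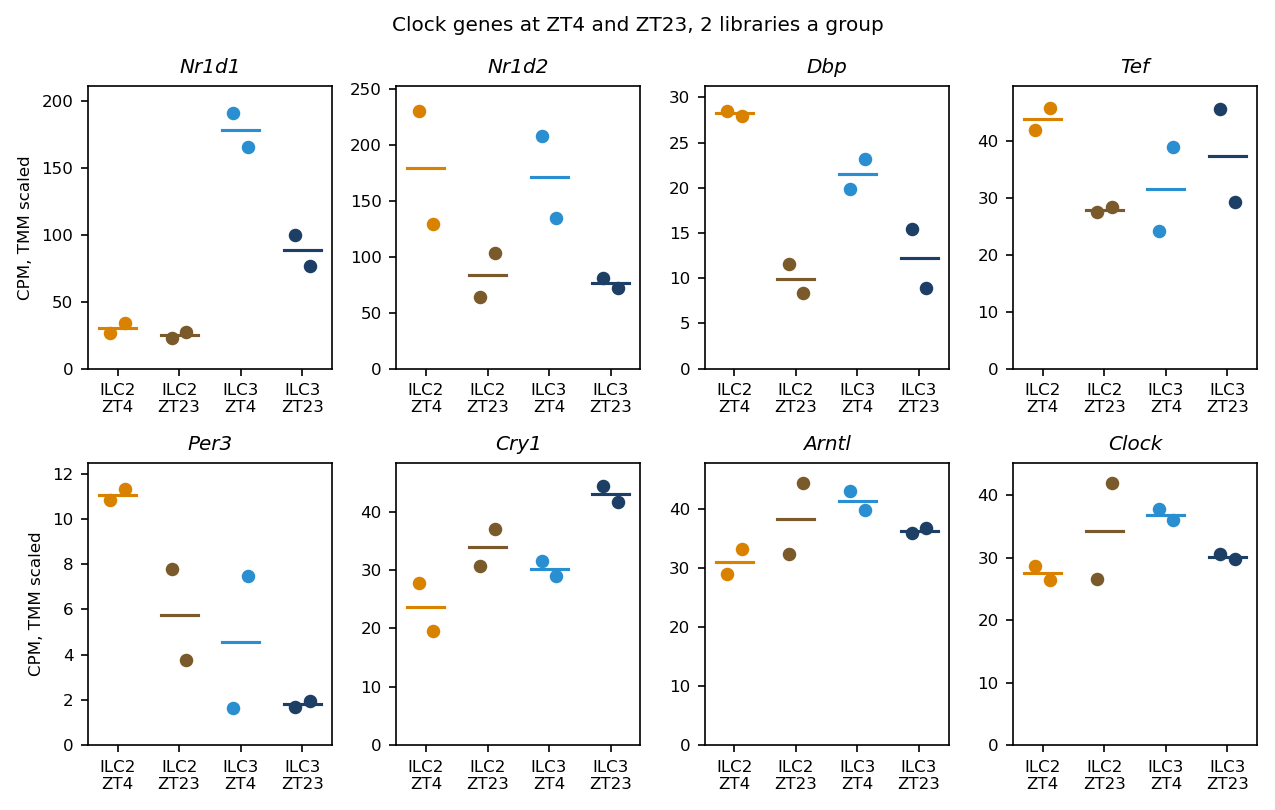
Levels of 8 clock genes in CPM (vertical axes, from 0, scaled by the trimmed mean of M-values) in each library of ILC2 at ZT4 and ZT23 and of ILC3 at ZT4 and ZT23 (horizontal axes). Points are libraries, replicate 1 left of replicate 2, and bars are means of 2. Nr1d2 and Dbp are higher in every ZT4 library, Cry1 is lower in every ZT4 library of its own cell type, and Arntl and Clock show no shared direction.

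Among the repressors that close the main loop, Per3 and Cry1 lay furthest from 0 for their error, in opposite directions. Per3 stood at 10.8 and 11.3 CPM in ILC2 at ZT4, against 7.78 and 3.76 CPM in ILC2 at ZT23, and at 1.66 and 7.49 CPM in ILC3 at ZT4, against 1.70 and 1.94 CPM in ILC3 at ZT23, with a log2 fold change of 1.15 ± 0.53. In ILC3 replicate 1 of ZT4 was no higher than the ZT23 libraries, so the ILC3 times overlapped, and without ILC3 ZT4 replicate 2 the log2 fold change was 0.61. Cry1, the strongest transcriptional repressor of the loop, stood at 27.8 and 19.6 CPM in ILC2 at ZT4, against 30.7 and 37.1 CPM in ILC2 at ZT23, and at 31.6 and 28.9 CPM in ILC3 at ZT4, against 44.5 and 41.7 CPM in ILC3 at ZT23. It was lower in every ZT4 library than in every ZT23 library of the same type, with a log2 fold change of -0.52 ± 0.20, nearly the same in ILC2 (-0.52) and ILC3 (-0.51). Per1, the period gene that also answers glucocorticoid, had 0.38 ± 0.23 and separated the times in both cell types, the ZT4 libraries being higher. Log2 fold changes of the other members were 0.46 ± 0.37 for Per2, 0.41 ± 0.39 for Cry2 and 0.87 ± 0.88 for Ciart, a repressor of CLOCK and BMAL1 that stayed under 5 CPM. The kinases that mark period proteins for breakdown were near 0, with -0.068 ± 0.18 for Csnk1d and -0.0035 ± 0.25 for Csnk1e. Fbxl21, a ligase subunit for cryptochromes, had 0.31 ± 0.39, and Timeless, a partner of the replication fork, had 0.099 ± 0.39. Of these 11 genes 8 were positive, where 39.2% of all genes were, with a median of 0.31, against -0.092 over all genes.

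The activators themselves lay closer to 0 than Dbp. Arntl, which encodes BMAL1, was measured at 29.0 and 33.3 CPM in ILC2 at ZT4, against 32.3 and 44.4 CPM in ILC2 at ZT23, and at 43.1 and 39.8 CPM in ILC3 at ZT4, against 35.9 and 36.8 CPM in ILC3 at ZT23, a log2 fold change of -0.056 ± 0.20. Its ZT4 values lay toward the high side in ILC3 and the low side in ILC2, and the difference of the step was 0.49 ± 0.39. Clock, its partner, had -0.013 ± 0.23 and Npas2, a paralog of Clock, -0.25 ± 0.50. Bhlhe40 and Bhlhe41, which encode the DEC repressors that compete for E-boxes, had 0.21 ± 0.29 and -0.51 ± 0.70. Of this group of 5, 1 was positive, where 39.2% of all genes were. The median of the group was -0.056, which came to 0.00064 with DESeq2.

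The other times place ZT4 on the curve of these genes, here on the scale of all 15 libraries, where ILC2 at ZT16 is 1 library. From ZT4 through ZT10 and ZT16 to ZT23, mean Dbp was 29.3, 53.4, 20.3 and 9.78 CPM in ILC2 and 23.1, 76.8, 29.9 and 12.2 CPM in ILC3, so ZT4 lay between the low at ZT23 and the high at ZT10. For Tef in ILC2, with 45.5, 107, 62.0 and 27.5 CPM, ZT4 also lay between the low at ZT23 and the high at ZT10. The same held for Per3 in both, with 11.5, 27.5, 14.6 and 5.70 CPM in ILC2 and 4.76, 13.6, 11.0 and 1.83 CPM in ILC3. Unlike Dbp in ILC2, these had ZT4 below ZT16. For Nr1d2 the means were 188, 227, 91.8 and 82.1 CPM in ILC2 and 186, 194, 107 and 77.2 CPM in ILC3, and at ZT4 and ZT10 the libraries overlapped. Cry1 had means of 24.7, 38.7, 41.4 and 33.3 CPM in ILC2 and 32.6, 48.1, 55.0 and 43.3 CPM in ILC3, lowest at ZT4 and highest at ZT16 in both. ILC3 held more Nr1d1 than ILC2 at every time, with 192, 238, 94.3 and 88.7 CPM against 31.3, 32.2, 11.1 and 24.6 CPM in ILC2, a difference that cannot be told apart from the batch.

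**Figure D2:**
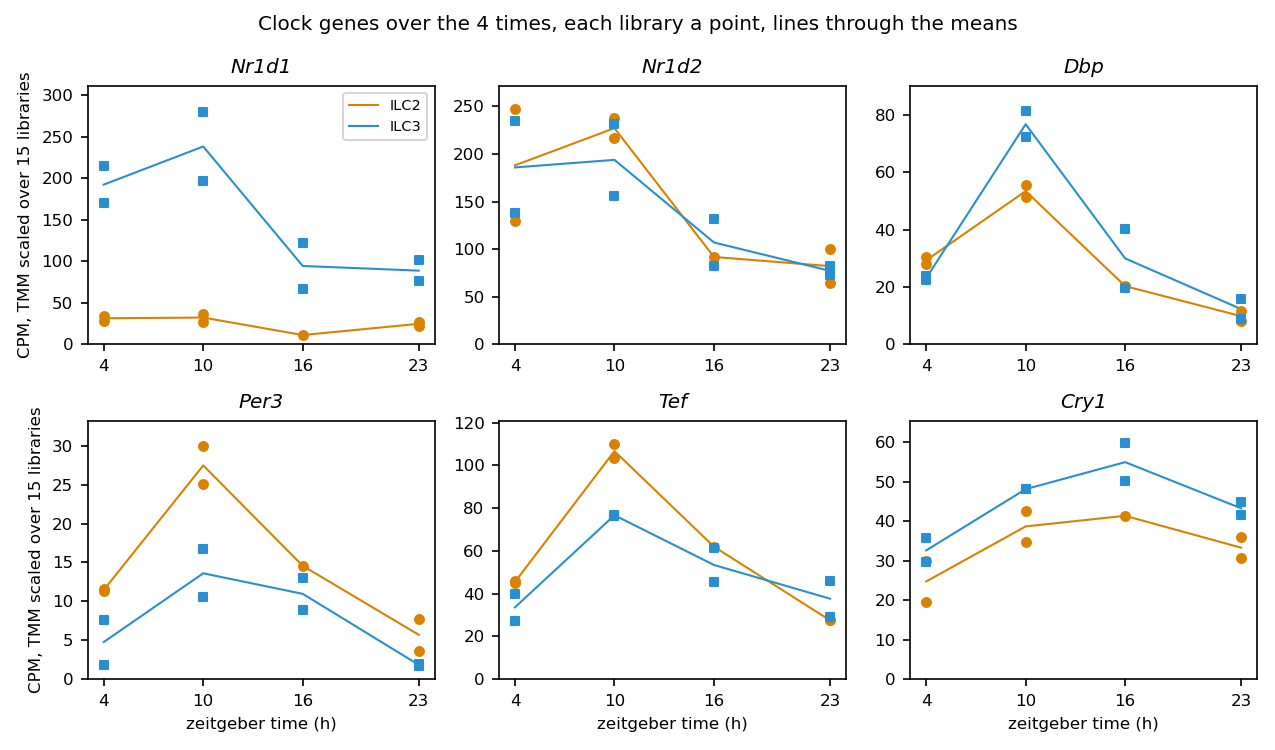
Levels of 6 clock genes in CPM (vertical axes, from 0, scaled over 15 libraries) by zeitgeber time in hours (horizontal axes). Circles are ILC2 libraries, squares are ILC3 libraries and lines join the means of 1 or 2 libraries. ZT4 sits on the climb to ZT10 for Dbp, Per3 and ILC2 Tef, at the level of ZT10 for Nr1d2, and at the low point for Cry1.

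The 250 bases before the start of 3 of these genes, and of the chaperone gene Hsph1 described further on, are shown because each holds a letter match to an element named above. Sequences and starts are RefSeq's on GRCm38.p6, read 5′ to 3′ on the gene's strand, and capitals mark the match. The motifs searched on both strands were the E-box CACGTG, the D-box TTATGTAA, the REV-ERB and ROR half-site AGGTCA, and the paired heat shock half-sites TTCNNGAA or GAANNTTC.
Nr1d2, chr14:18239107-18239356, minus strand: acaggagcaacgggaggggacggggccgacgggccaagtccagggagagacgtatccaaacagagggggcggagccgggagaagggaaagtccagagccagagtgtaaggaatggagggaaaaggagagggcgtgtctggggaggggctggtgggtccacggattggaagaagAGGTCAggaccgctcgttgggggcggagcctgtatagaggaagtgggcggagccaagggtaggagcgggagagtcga
Per3, chr4:151044666-151044915, minus strand: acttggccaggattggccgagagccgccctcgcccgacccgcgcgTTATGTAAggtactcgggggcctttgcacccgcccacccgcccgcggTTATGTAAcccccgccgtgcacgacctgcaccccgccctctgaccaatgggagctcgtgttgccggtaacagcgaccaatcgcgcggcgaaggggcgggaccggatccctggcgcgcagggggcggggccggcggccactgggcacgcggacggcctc
Cry1, chr10:85185055-85185304, minus strand: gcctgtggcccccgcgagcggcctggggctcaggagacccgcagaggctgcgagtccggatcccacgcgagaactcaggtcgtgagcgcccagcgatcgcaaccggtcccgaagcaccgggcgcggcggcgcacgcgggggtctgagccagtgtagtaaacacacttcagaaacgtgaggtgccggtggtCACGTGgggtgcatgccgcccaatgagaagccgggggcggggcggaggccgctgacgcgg
Hsph1, chr5:149636337-149636586, minus strand: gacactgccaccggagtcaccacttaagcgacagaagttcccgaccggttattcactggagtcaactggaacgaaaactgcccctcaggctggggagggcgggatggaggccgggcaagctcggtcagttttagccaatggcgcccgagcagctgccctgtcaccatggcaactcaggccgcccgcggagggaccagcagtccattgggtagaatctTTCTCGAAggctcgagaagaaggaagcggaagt

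Nr1d2 held 1 AGGTCA, Per3 held 2 copies of TTATGTAA, Cry1 held 1 CACGTG and Hsph1 held 1 pair of heat shock half-sites, while the windows of Nr1d1 and Dbp held none of these letters. Among 32851 windows of this length, the E-box was in 6.02%, the D-box in 0.819%, the half-site in 14% and the heat shock pair in 12.8%. Of 26 listed clock genes 21 had a window, and of these 5 held the E-box, 2 the D-box and 4 the half-site in any of their windows. A gene can have several windows, whereas the percentages count single windows, so the counts and percentages are not like measures. A match describes the letters in the window and does not show binding.

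Outside the clock, the genes with the smallest p whose ZT4 libraries were higher without overlap in both cell types included genes known from macrophages. Adamdec1, a secreted metalloprotease of gut macrophages and stroma, stood at 47.6 and 21.3 CPM in ILC2 at ZT4, against 8.63 and 7.53 CPM in ILC2 at ZT23, and at 118 and 100.5 CPM in ILC3 at ZT4, against 39.7 and 40.7 CPM in ILC3 at ZT23. Each pair of ZT4 libraries was well above its ZT23 pair, with a log2 fold change of 1.75 ± 0.28. Mmp9, a gelatinase secreted by myeloid cells, stood at 29.4 and 23.3 CPM in ILC2 at ZT4, against 12.4 and 6.96 CPM in ILC2 at ZT23, and at 72.4 and 82.9 CPM in ILC3 at ZT4, against 23.1 and 32.3 CPM in ILC3 at ZT23, with 1.47 ± 0.24 and almost the same step in ILC2 (1.45) and ILC3 (1.49). Zswim4, a zinc finger gene, stood at 73.8 and 76.0 CPM in ILC2 at ZT4, against 43.9 and 42.8 CPM in ILC2 at ZT23, and at 139.8 and 96.4 CPM in ILC3 at ZT4, against 53.7 and 45.1 CPM in ILC3 at ZT23, with 1.02 ± 0.20. These were the 3 genes that DESeq2 called, with Benjamini-Hochberg adjusted p of 0.000338 for Adamdec1, 0.000838 for Mmp9 and 0.0192 for Zswim4, and without the 2 shallowest libraries edgeR gave 1.36, 1.44 and 0.89 on the log2 scale. Further genes named for their separation were Dab2, an endocytic adaptor of macrophages (1.39 ± 0.35), Cd209b, a lectin of macrophages (1.55 ± 0.40), and Pianp, an immune receptor ligand (1.43 ± 0.38). Both Cd209b and Pianp were at most 5 CPM in ILC2, and their ILC3 values at ZT4 were 100.0 and 40.1 CPM and 91.4 and 36.8 CPM, higher in the shallow replicate 1.

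Markers of macrophages and dendritic cells lay on the same side. Of 18 markers 17 were positive, where 39.2% of all genes were, with a median log2 fold change of 0.67 (0.49 in ILC2 and 0.87 in ILC3), and 5 had p under 0.05 with a higher level at ZT4, where 1.28% of all genes did. Their summed level was 2841 and 1482 CPM in ILC2 at ZT4, against 1870.2 and 1582 CPM in ILC2 at ZT23, and 4955 and 3084 CPM in ILC3 at ZT4, against 2284 and 2889.6 CPM in ILC3 at ZT23. The sum was highest in the replicate 1 library of ZT4 in both cell types, and all 18 markers passed the filter on low counts. Mrc1, the mannose receptor, had 1.18 ± 0.37, Adgre1, which encodes F4/80, 0.85 ± 0.31, Zbtb46, a dendritic cell factor, 0.80 ± 0.30, and C1qc, a complement chain of macrophages, 0.83 ± 0.36. Without the 2 shallowest libraries the median of the markers was 0.16, with 14 positive and 4 negative. In these bulk samples, more cells of a type and more RNA per cell cannot be told apart, and the part of other cells in the step of Adamdec1 and Mmp9 was not tested.

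**Figure D3:**
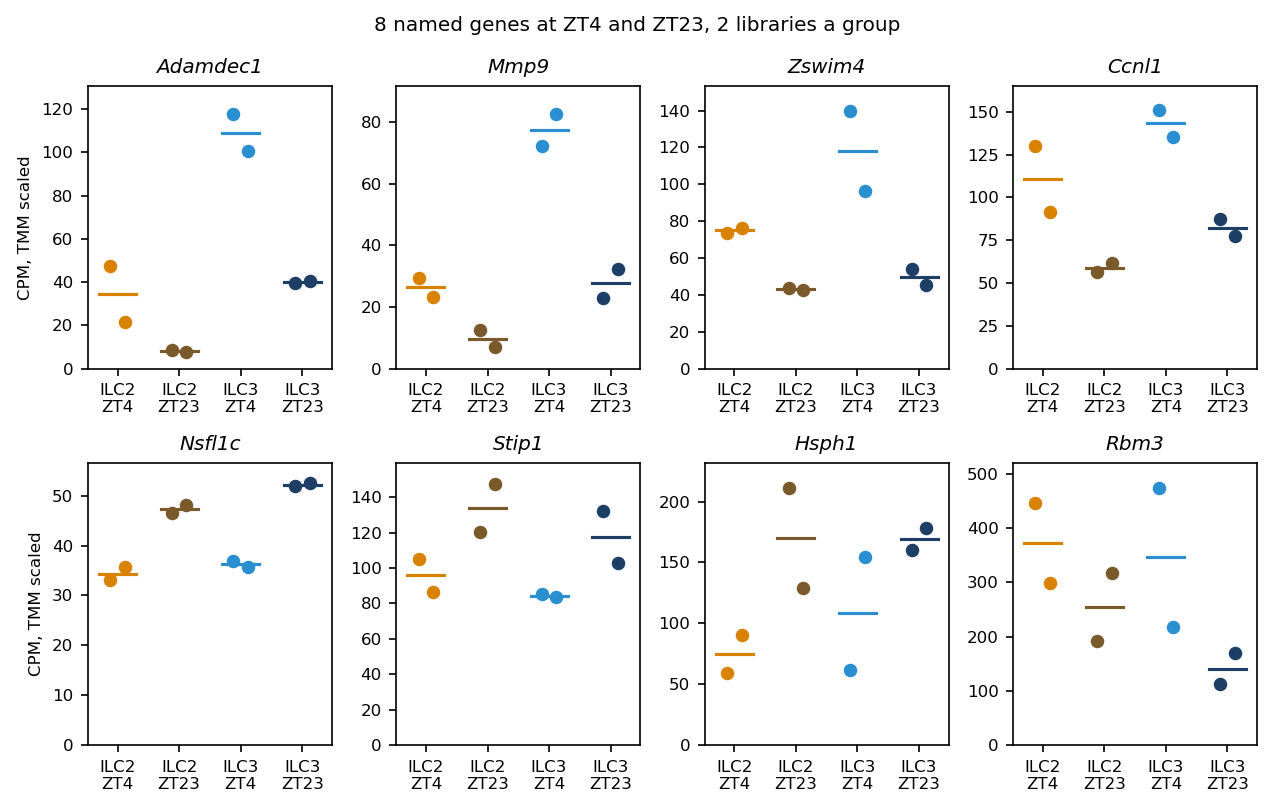
Levels in CPM (vertical axes, from 0) of 8 genes in ILC2 at ZT4 and ZT23 and ILC3 at ZT4 and ZT23 (horizontal axes). Points are libraries, replicate 1 left of replicate 2, and bars are means of 2. The top row lies higher at ZT4 in both cell types, Nsfl1c, Stip1 and Hsph1 lie lower, and Rbm3 overlaps in ILC2.

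The remaining genes named by the same rule with higher ZT4 levels encode regulators of transcription, splicing and signalling. Ccnl1, a cyclin of the splicing machinery, stood at 130.1 and 91.3 CPM in ILC2 at ZT4, against 56.3 and 61.7 CPM in ILC2 at ZT23, and at 151 and 135 CPM in ILC3 at ZT4, against 87.6 and 77.2 CPM in ILC3 at ZT23. Its log2 fold change was 0.85 ± 0.17, with no overlap in either type. Dot1l, the histone H3 lysine methyltransferase of transcribed genes, had 0.89 ± 0.22, and Mepce, which caps 7SK RNA, 0.72 ± 0.18. Wsb1, a substrate receptor of a ubiquitin ligase, had 1.00 ± 0.25, and Dennd4a, an exchange factor for Rab GTPases, 1.24 ± 0.35. Flcn, which encodes folliculin, a regulator of mTORC1 at the lysosome, had 0.66 ± 0.18 and Tcp11l2 0.95 ± 0.26. In all of these the log2 fold change kept its sign without the 2 shallowest libraries, with values between 0.47 for Tcp11l2 and 0.68 for Ccnl1. Dbp and Nr1d2 were the clock genes among the 15 named in this direction, which were taken from 134 that met the rule of no overlap and 10 CPM.

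In the other direction 235 genes met that rule, and several chaperone genes were among the 15 named. Hsph1, which encodes the HSP110 chaperone, stood at 59.3 and 90.6 CPM in ILC2 at ZT4, against 211 and 129 CPM in ILC2 at ZT23, and at 61.6 and 154 CPM in ILC3 at ZT4, against 159.9 and 179 CPM in ILC3 at ZT23. The ZT4 libraries were lower in both types, though ILC3 replicate 2 came close to its ZT23 libraries, and the log2 fold change was -0.91 ± 0.32. Without the 2 shallowest libraries the value for Hsph1 was -0.50. Stip1, which hands clients between HSP70 and HSP90, stood at 105 and 86.7 CPM in ILC2 at ZT4, against 120.3 and 147 CPM in ILC2 at ZT23, and at 85.1 and 83.8 CPM in ILC3 at ZT4, against 132 and 103 CPM in ILC3 at ZT23, with -0.48 ± 0.17 and the same step of -0.48 in ILC2 and -0.48 in ILC3. Nsfl1c, the p47 cofactor of the p97 ATPase, stood at 33.1 and 35.6 CPM in ILC2 at ZT4, against 46.5 and 48.1 CPM in ILC2 at ZT23, and at 36.9 and 35.8 CPM in ILC3 at ZT4, against 52.0 and 52.5 CPM in ILC3 at ZT23, with -0.49 ± 0.16 and replicates within 3 CPM of each other. Pfdn2, a prefoldin subunit, had -0.60 ± 0.21 and Cacybp, which binds the ligase SIAH1, -0.66 ± 0.24. Chromatin and nuclear genes with lower ZT4 levels were Hdac2, a histone deacetylase (-0.56 ± 0.20), Cbx1, a heterochromatin protein (-0.59 ± 0.21), Taf12, a TFIID subunit (-0.59 ± 0.20), Orc5, of the origin recognition complex (-0.75 ± 0.26), Zfp207, a spindle protein (-0.53 ± 0.18), and Gar1, of the H/ACA ribonucleoproteins (-0.81 ± 0.29). Membrane genes were Tmem129, a ligase of the endoplasmic reticulum (-0.97 ± 0.31), Tmem33 (-0.52 ± 0.18) and Chmp7, an ESCRT protein of the nuclear envelope (-0.65 ± 0.23), and the last was Fam83a, with a log2 fold change of -1.0. All 15 stayed negative without the 2 shallowest libraries, with values between -0.33 for Cacybp and -0.87 for Tmem129.

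The heat shock list as a whole lay on the same side. Of 17 chaperone and cochaperone genes 16 were negative, where 39.2% of all genes were positive. Their median log2 fold change was -0.41 against -0.092 over all genes, and -0.54 in ILC2 and -0.33 in ILC3. At p under 0.05 there were 3 with a lower level at ZT4, Hsph1, Stip1 and the mitochondrial chaperonin Hspd1 (-0.64 ± 0.28), where 0.785% of all genes did. Hspd1 came to -0.29 without ILC3 ZT23 replicate 2, the library with the most hemoglobin and epithelial RNA, in which it stood at 448 CPM, against 203 CPM in its replicate. Hspa4l, an HSP110 relative, had -0.71 ± 0.32. For 3 of the 17 the times did not overlap in either cell type, with the lower level at ZT4, against 2.3% of all genes. The summed level of the list was 5629 and 7603 CPM in ILC2 at ZT4, against 12862 and 7708 CPM in ILC2 at ZT23, and 5051 and 11101 CPM in ILC3 at ZT4, against 9682 and 10329 CPM in ILC3 at ZT23. ILC3 ZT4 replicate 2 had the highest sum of ILC3, so the sum does not order the times there. Without the 2 shallowest libraries the median was -0.27, with 13 negative. At ZT16 Hsph1 stood higher than at either time, with means from ZT4 to ZT23 of 77.2, 114, 242 and 168 CPM in ILC2 and 114, 130.4, 228 and 169.8 CPM in ILC3. Of 17 listed genes 13 had a promoter window, and 8 of these held paired half-sites of the kind printed for Hsph1 in any of their windows. The share of 12.8% over all is one of single windows and not a like measure.

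Cold-inducible RNA-binding genes, which in mouse liver run opposite to heat shock genes over the day, lay on the opposite side. Rbm3 stood at 446 and 299 CPM in ILC2 at ZT4, against 192 and 317 CPM in ILC2 at ZT23, and at 474 and 219 CPM in ILC3 at ZT4, against 113 and 169 CPM in ILC3 at ZT23. ILC3 separated and ILC2 overlapped, with a log2 fold change of 0.92 ± 0.33, 0.44 without the 2 shallowest libraries. Its relative Cirbp had 0.23 ± 0.19, 0.53 ± 0.24 in ILC2 and -0.065 ± 0.24 in ILC3. Over the 4 times Rbm3 averaged 389, 352, 178 and 249 CPM in ILC2 and 379, 348, 153 and 141 CPM in ILC3, with ZT4 and ZT10 above ZT16 and ZT23 in both. Clk1, a splicing kinase active at lower temperature, had 0.56 ± 0.24. The 12 RNA-binding genes of its list, however, were 6 positive and 6 negative, where 39.2% of all genes were positive.

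Genes of antigen presentation and NF-kB signalling had higher levels at ZT4 chiefly through the replicate 1 libraries. All 13 tested class II genes were positive, where 39.2% of all genes were, with a median of 0.59. Their summed level was 47104 and 20658 CPM in ILC3 at ZT4, against 16652 and 20896 CPM in ILC3 at ZT23. In ILC2 the sums overlapped, with 13913 and 8366 CPM at ZT4, against 13151 and 6838 CPM at ZT23. H2-DMa, which loads peptide on class II molecules, had 0.59 ± 0.27 and the costimulatory gene Cd80 1.15 ± 0.53. Without the 2 shallowest libraries the median was -0.0076, with 6 positive and 7 negative. Of 26 NF-kB genes 21 were positive, where 39.2% of all genes were, with a median of 0.33. At an edgeR p under 0.05 with a higher level at ZT4 there were 2, against 1.28% of all genes. They were Cxcl2, a neutrophil chemokine (0.86 ± 0.26), and Tnf (0.83 ± 0.33). Leaving out the same libraries gave a median of -0.090 and left 7 positive. Immediate-early genes were mixed in sign, with 16 of 28 positive, where 39.2% of all genes were. Nr4a3, an orphan nuclear receptor of activated lymphocytes, had 0.89 ± 0.33, Nr4a2 0.81 ± 0.35, Klf4 0.46 ± 0.21 and Fos -0.52 ± 0.29.

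Synthesis and division genes lay mostly below 0, where 39.2% of all genes lay above it. In the cholesterol and fatty acid list 27 of 30 genes were negative, with a median of -0.31, -0.40 in ILC2 and -0.098 in ILC3. Elovl6, a fatty acid elongase, separated the times in both cell types with -0.64 ± 0.29, which came to -0.27 without ILC2 ZT23 replicate 2, and Dhcr7, a late enzyme of cholesterol synthesis, had -0.53 ± 0.26. The desaturase Scd2 had -0.91 ± 0.38 in ILC2 and -0.16 ± 0.37 in ILC3. Without the 2 shallowest libraries 22 of the 30 were negative and the median was -0.076. In the cell division list 24 of 30 were negative, with a median of -0.32, which came to -0.010 without those libraries and -0.013 without ILC3 ZT23 replicate 2, and was 0.076 with limma's voom. Cdk1, the mitotic kinase, stood at 0.955 and 5.45 CPM in ILC2 at ZT4, against 10.2 and 10.5 CPM in ILC2 at ZT23, and at 12.4 and 11.6 CPM in ILC3 at ZT4, against 12.7 and 44.5 CPM in ILC3 at ZT23. The ILC2 times were apart, whereas in ILC3 ZT4 replicate 1 and ZT23 replicate 1 were nearly level and changed places on the scale of all 15 libraries. ILC3 ZT23 replicate 2, the library with the most epithelial RNA, held the highest value, and the log2 fold change was -1.44 ± 0.54. Interferon response genes were negative in 25 of 32 cases, where 39.2% of all genes were positive, with a median of -0.29. That median came to -0.064 without ILC3 ZT23 replicate 1 and -0.079 without ILC2 ZT23 replicate 2. Oasl1, of the oligoadenylate synthetase family, had -0.87 ± 0.37. Ifit1, which binds foreign RNA caps, had -1.51 ± 0.62 in ILC2 and -0.026 ± 0.61 in ILC3.

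Markers of other cells that the sort could hold varied widely between libraries of the same time. Epithelial genes were negative in 24 of 27 cases, where 39.2% of all genes were positive, with a median of -0.92. Their summed level in ILC2, however, was 244 and 2331 CPM at ZT4, against 1091 and 1473 CPM at ZT23, and in ILC3 406 and 4783 CPM at ZT4, against 1483 and 13657 CPM at ZT23. The ranges overlap in both types, and without the 2 shallowest libraries the median was -0.037. Erythroid genes had a median of 1.36 in ILC2 and -3.54 in ILC3, where 1432 CPM lay in ILC3 ZT23 replicate 2 and at most 97.7 CPM in any other ILC3 library. Plasma and B cell genes summed to 66189 and 99092 CPM in ILC2 at ZT4, against 194983 and 19904 CPM in ILC2 at ZT23. T cell genes summed to 784 and 2977 CPM in ILC3 at ZT4, against 4600.2 and 1419.9 CPM in ILC3 at ZT23. Mast cell, basophil and eosinophil genes had a median of -0.27, 0.25 without ILC2 ZT23 replicate 1, and Siglecf, an eosinophil lectin that some macrophages also bear, had 1.52 ± 0.43 without overlap in either type. Siglecf was at most 4.27 CPM in ILC2 on the scale of all 15 libraries, and came to 0.98 without the 2 shallowest libraries. Stromal genes had a median of 0.41, which spread from 0.19 without ILC2 ZT23 replicate 1 to 2.37 without ILC3 ZT23 replicate 2, and was 1.43 with voom. Col3a1, a fibrillar collagen gene, was highest in the replicate 2 libraries of ZT4, standing at 5.57 and 30.8 CPM in ILC2 at ZT4, against 1.34 and 2.45 CPM in ILC2 at ZT23, and at 1.66 and 102 CPM in ILC3 at ZT4, against 1.53 and 15.5 CPM in ILC3 at ZT23.

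Genes that define the sorted cells had medians near 0 over both types that changed sign when single libraries were left out. Of 19 ILC2 identity genes 12 were positive, with a median of 0.093, and of 25 ILC3 genes 14 were, with a median of 0.067. Over all genes, 39.2% were positive and the median was -0.092. By cell type, the ILC3 list had medians of -0.471 in ILC2 and 0.271 in ILC3. The ILC2 list had -0.024 in ILC2 and -0.061 in ILC3. Among type 2 effectors, 3 of 11 were positive, with a median of -0.18 that turned to 0.21 with voom. By cell type, the edgeR median of this list was 0.317 in ILC2 and -0.383 in ILC3. Il5 stood at 110.2 and 68.8 CPM in ILC2 at ZT4, against 40.1 and 79.7 CPM in ILC2 at ZT23 (0.58 ± 0.90 in ILC2). The ILC2 values of Il5 overlapped, as did those of the costimulator Icos (0.22 ± 0.51) and the chemokine receptor Ccr4 (-0.47 ± 0.53). Calca, which encodes the neuropeptide CGRP, separated in ILC2, with 55.8 and 42.1 CPM in ILC2 at ZT4, against 25.6 and 39.8 CPM in ILC2 at ZT23, and was at most 1.23 CPM in ILC3. In ILC3, Tnfsf11, which encodes RANKL, stood at 1349 and 486 CPM at ZT4, against 463 and 506 CPM at ZT23, and Ccr6, the receptor of lymphoid-tissue-inducer-like ILC3, at 105 and 56.0 CPM, against 96.8 and 75.3 CPM. Neither separated the times. The medians of 8 further lists lay near 0 over both types and each changed sign in 1 or more alternatives: clock output (0.11), glucocorticoid response (-0.020), cytotoxic and type 1 genes (-0.13), receptors for neural, hormonal and metabolite signals (-0.046), homing (0.038), glycolysis (0.028), the unfolded protein response (-0.057) and T cells (-0.13). Some of these lay further from 0 within a cell type. T cell genes had medians of 0.429 in ILC2 and -0.696 in ILC3, and cytotoxic and type 1 genes 0.275 in ILC2 and -0.375 in ILC3. In the clock output list Tspan4, a clock output tetraspanin, had 0.98 ± 0.37 without overlap in either type.

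**Figure D4:**
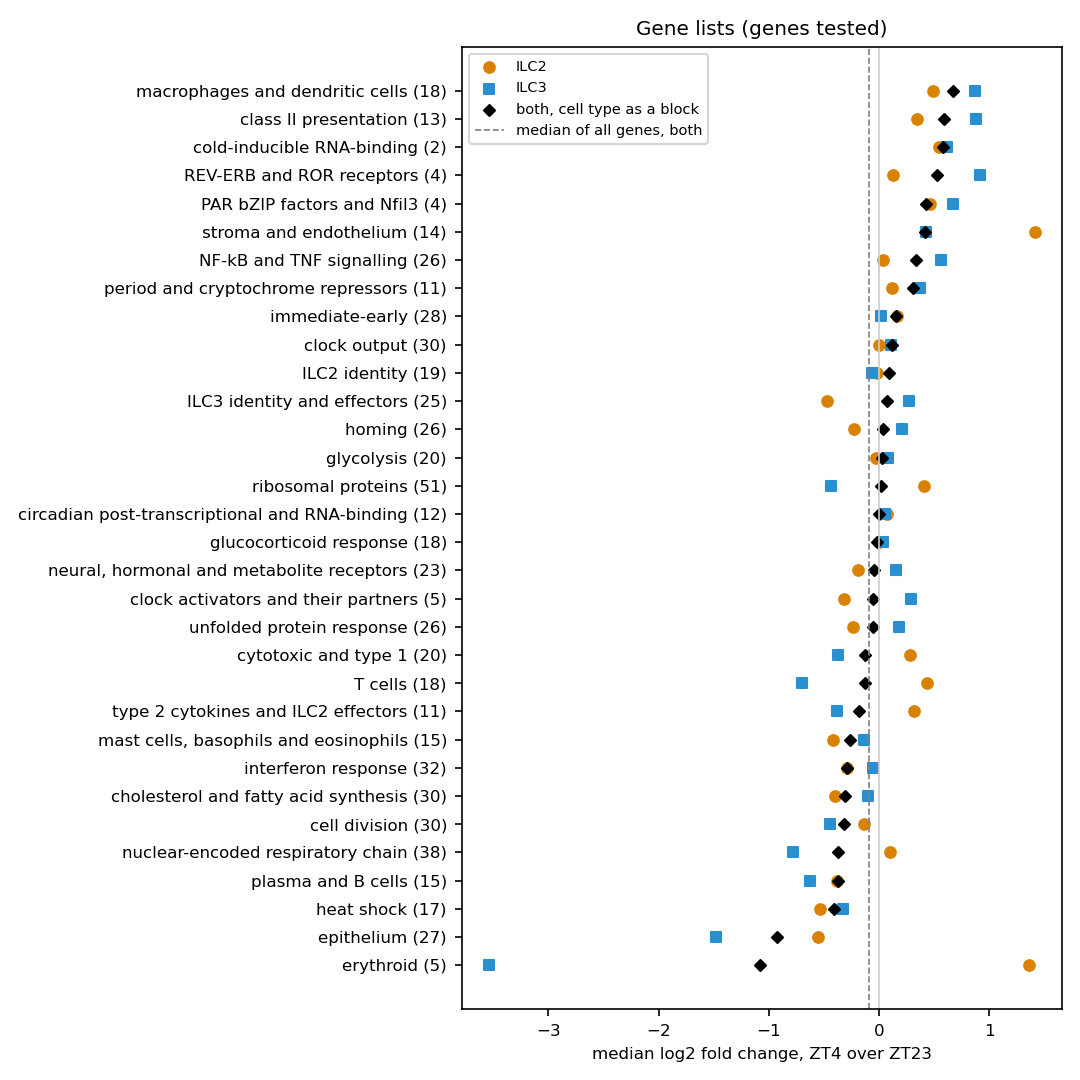
Median log2 fold change of ZT4 over ZT23 (horizontal axis) for the 32 gene lists (rows, with the number of genes tested) in ILC2 (circles), ILC3 (squares) and both with cell type as a block (diamonds). The dashed line is the median of all genes over both types. Heat shock lies below and the REV-ERB, PAR bZIP and macrophage lists above that line in both cell types, while ribosomal protein genes lie below it in ILC3 and above it in ILC2.

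Within ILC2 alone, 0 of 14016 genes passed the adjusted threshold in edgeR, 260 had p under 0.05 (1.86%), and DESeq2 called 4. The 5 higher genes named were Adamdec1, Mmp9, Dbp and Ccnl1, with the values above, and Izumo1r, the folate receptor FR4 of regulatory T cells, which had 15.7 and 8.13 CPM at ZT4, against 2.31 and 2.34 CPM at ZT23 (2.35 ± 0.68). Among the lower genes, Acaca, the acetyl-CoA carboxylase that starts fatty acid synthesis, stood at 7.64 and 10.4 CPM in ILC2 at ZT4, against 25.8 and 31.5 CPM in ILC2 at ZT23 (-1.66 ± 0.34). Both ZT4 libraries were under 11 CPM and both ZT23 libraries over 25 CPM. Itpr1, a calcium release channel, stood at 68.6 and 80.9 CPM in ILC2 at ZT4, against 136 and 169.8 CPM in ILC2 at ZT23 (-1.03 ± 0.27). The other lower genes were Cd2ap, an actin adaptor (-1.11 ± 0.32), Epb41l2, a membrane skeleton protein (-0.86 ± 0.25), and Camsap1, which caps microtubule minus ends (-1.48 ± 0.44).

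Within ILC3 alone, 0 genes passed in edgeR, the smallest adjusted p was 0.978, 520 had p under 0.05 (3.71%) and DESeq2 called 0. The higher genes named were Zswim4 and Mmp9, with the values above, and Malt1, Taf4b and Cpm. Malt1, the paracaspase upstream of NF-kB, stood at 258 and 136 CPM in ILC3 at ZT4, against 64.5 and 78.5 CPM in ILC3 at ZT23 (1.46 ± 0.35). Taf4b, a TFIID subunit, had 1.82 ± 0.44 and Cpm, a membrane carboxypeptidase, 1.52 ± 0.39. All 3 were highest in the shallow replicate 1 library, and without the 2 shallowest libraries they came to 0.93, 1.20 and 0.91. Lower genes were Idnk, a gluconate kinase, at 16.1 and 22.4 CPM in ILC3 at ZT4, against 48.2 and 41.2 CPM in ILC3 at ZT23 (-1.21 ± 0.29), and 4 others. They were Nop10, of the H/ACA particles (-1.14 ± 0.27), Ndufa6, of respiratory complex I (-1.13 ± 0.30), Timm13, a mitochondrial import chaperone (-1.18 ± 0.32), and Rpl32l, a ribosomal protein copy (-0.98 ± 0.25) whose reads may be shared with its near-identical relatives.

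Across 9203 genes of at least 10 CPM, the steps of ILC2 and ILC3 had a Pearson r of 0.1, and 47.2% had the same sign. The steps share no library, but the cell types may come from the same pools of mice. The test of the difference of the step, ILC3 minus ILC2, called 0 genes in edgeR, with 461 at p under 0.05 (3.29%). Named with a positive difference were Nav1, a microtubule protein, Itpr1 and Acaca. Nav1 stood at 57.0 and 47.0 CPM in ILC3 at ZT4, against 28.8 and 28.4 CPM in ILC3 at ZT23, and at 1.43 and 1.38 CPM in ILC2 at ZT4, against 5.35 and 6.21 CPM in ILC2 at ZT23, with a difference of 2.90 ± 0.47. The times separated in opposite directions, as they did for Itpr1 (1.96 ± 0.38), with 115 and 96.7 CPM in ILC3 at ZT4, against 64.7 and 45.9 CPM in ILC3 at ZT23, and for Acaca (2.03 ± 0.47), with 27.8 and 26.8 CPM in ILC3 at ZT4, against 20.8 and 21.4 CPM in ILC3 at ZT23. Plet1 and Zfp385c also met the rule, but both had 0 counts in the ILC2 libraries of ZT4 and at most 1.08 CPM and 0.729 CPM in those of ZT23, so no fold is given. With a negative difference were Izumo1r (-3.57 ± 0.95), Micos13, of the mitochondrial cristae (-1.67 ± 0.43), S100a10, the partner of annexin A2 (-1.26 ± 0.32), Rps16 (-1.50 ± 0.39) and Rpl32l (-1.44 ± 0.35). S100a10 stood at 159.7 and 165 CPM in ILC3 at ZT4, against 263 and 309.9 CPM in ILC3 at ZT23, and at 166 and 159 CPM in ILC2 at ZT4, against 116 and 123 CPM in ILC2 at ZT23.

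Ribosomal and respiratory chain genes had lower medians in ILC3 than in ILC2, though the difference was not tested over these lists. The 51 ribosomal protein genes had a median of -0.44 in ILC3 and 0.41 in ILC2. Rps2 stood at 347 and 339 CPM in ILC3 at ZT4, against 500.5 and 852 CPM in ILC3 at ZT23, and at 708 and 507 CPM in ILC2 at ZT4, against 479.6 and 509.7 CPM in ILC2 at ZT23. The 38 nuclear-encoded respiratory chain genes had medians of -0.78 in ILC3 and 0.094 in ILC2, and Cox7a2, of cytochrome oxidase, had -1.09 ± 0.37 and -0.13 ± 0.37. These genes have short transcripts, and the step ran with gene length over all genes of at least 10 CPM. Of 4 groups by the files' gene length, the shortest had a median log2 fold change of -0.352 in ILC3 and the longest 0.192, whereas in ILC2 the shortest had 0.117 and the longest -0.246. The difference of the step had medians of -0.478 in the shortest and 0.442 in the longest group, over 2133 and 2486 genes. Acaca, Itpr1 and Nav1 are long genes and Rps16, S100a10 and Micos13 short ones, and the part of length in their differences was not tested. The sum of the respiratory chain list in ILC3 was 5466 and 6005 CPM at ZT4, against 6319 and 12009 CPM at ZT23, with the library that held hemoglobin and epithelial RNA apart from the other 3. Over both types the median of that list was -0.37, and -0.0044 without that library.

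**Figure D5:**
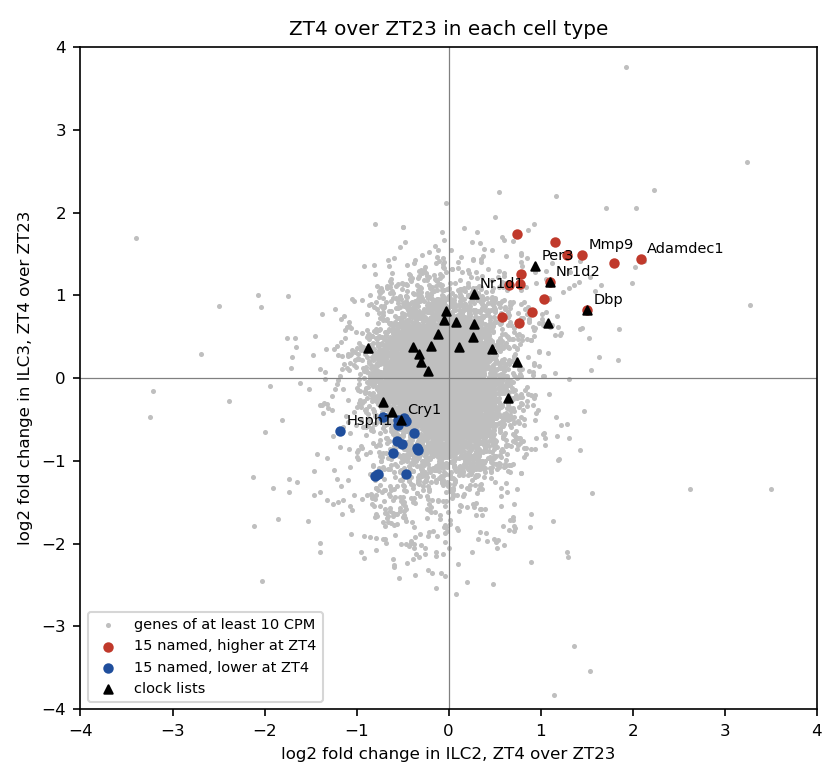
Log2 fold change of ZT4 over ZT23 in ILC2 (horizontal axis) and ILC3 (vertical axis) for 9203 genes of at least 10 CPM (grey), of which 11 lie outside the axes. The 30 genes named by lack of overlap in both types are in red (15 higher at ZT4) and blue (15 lower at ZT4), chosen for lying there, and clock genes are black triangles. The grey cloud shows little relation between the cell types (r = 0.1).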

How the data were processed

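Poly(A) RNA of sorted ILC2 and ILC3 from the small intestine of female mice was sequenced, and the deposited files hold whole-number read counts per gene. The submitters' processing notes name featureCounts and the mouse build mm10, and whether counting used strand is not given in the sources used here, so overlapping and antisense genes cannot be told apart. Gene length, also deposited by the authors, is used as an other column for sorting genes by length. Of 22797 genes, 22718 were named through RefSeq identifiers.

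From these counts, 14016 genes passed filterByExpr (minimum count 10, by group), libraries were scaled by TMM, and values are CPM on that scale. The step was tested with edgeR 4.0.16 (quasi-likelihood F-test, R 4.3.3, Benjamini-Hochberg over all genes tested): cell type plus time for both types together, and 4 group means for each type alone and for the difference of the step. The spread is shared over the 8 libraries, and total counts of 5903163 to 20976226 limit the precision of genes of few CPM. SE is the log2 fold change divided by the root of its F value. limma 3.58.1 and DESeq2 1.42.0 were alternatives, and the code was tested on simulated data.

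The genes named in the text are all clock genes listed, the 15 in each direction with the smallest p among genes of at least 10 CPM whose times did not overlap in either cell type, 5 in each direction for each type and for the difference, and up to 4 members of each gene list. Some genes that this rule names are not reported here. The comparison and these lists were chosen with earlier results of these data known. Replicate numbers were not used to pair libraries. The 7 libraries of ZT10 and ZT16 serve as context and in 1 alternative fit.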

Additional observations from a re-analysis of the deposited data

How the results depend on the processing

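Precision rests on 2 libraries a group, 2 of them with 6543306 and 5903163 counts, and on a filter that leaves genes of few reads with wide errors. Each fit that was run gave 0 genes past an adjusted p of 0.05 (the replicate block was not fitted for the difference, and the shared source of same-numbered libraries only over both types), except DESeq2, with 3 over both cell types and 4 in ILC2 (Adamdec1, Col14a1, Tff2 and Muc6), and the fit without the 2 shallowest libraries, chosen after seeing the data, with 2 over both types (Tff2 and Muc6). Leaving out each library in turn left 0 calls in each comparison and moved the genes at p under 0.05 between 122 (without ILC3 ZT4 replicate 1) and 594 (without ILC2 ZT4 replicate 2) over both types, 194 and 835 in ILC2, 65 and 1597 in ILC3 (without ILC3 ZT4 replicate 1 and without ILC3 ZT4 replicate 2), and 165 and 1077 for the difference. With a lone library in a group, that library is taken to vary like the others. The fit on all 15 libraries gave 927 genes at p under 0.05 over both types, and the fit without the 2 shallowest gave 93.

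Same-numbered ZT4 and ZT23 libraries did not deviate together in ILC2 (r = -0.0873) but did in ILC3 (r = 0.434), so numbers are not taken as pairs. With the replicate number as a block, 0, 0 and 0 genes passed over both types, in ILC2 and in ILC3, with 521, 200 and 537 at p under 0.05, and Clock came to 0.0066 and Csnk1e to 0.024.

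Of 2299 values of 117 gene results under 20 alternatives, 2246 kept their direction, and 104 results kept it in every alternative that gave a value. After reversal the values lay between -0.15 and 0.22. Reported values that reversed were small for Clock (-0.013) and Csnk1e (-0.0035). They were larger for Tnfsf11 (0.79), Bhlhe41 (-0.51), Nmur1 (-0.47), Nfil3 (0.38) and Rps2 (-0.34), and the cause was not tested. Log2 fold changes of Clock and Csnk1e were 0.047 and 0.055 with RLE size factors, 0.0013 and 0.032 with library size only, 0.026 and 0.036 with no filter, 0.039 and 0.051 with a filter at 50 counts, 0.046 and 0.056 with DESeq2, 0.055 and 0.058 with Jchain removed, and 0.074 and 0.077 with all 15 libraries. Arntl was 0.00097 with RLE, 0.00064 with DESeq2, 0.020 with voom, 0.030 with all 15 libraries and 0.0097 with Jchain removed. In voom Clock was 0.064 and Nmur1 0.062, and with all 15 libraries Csnk1d was 0.015. Without the 2 shallowest libraries Bhlhe40 was -0.11, Bhlhe41 0.083, Csnk1d 0.0044, Csnk1e 0.018, Timeless -0.15, Nfil3 -0.0091 and Tnfsf11 -0.014. With same-numbered ILC2 and ILC3 libraries as 1 source, also added after seeing the data, Csnk1e was 0.079 and Fbxl21 -0.032. Leaving out 1 library gave ranges of -0.12 to 0.12 for Arntl, -0.081 to 0.22 for Clock, -0.55 to 0.12 for Npas2, -0.12 to 0.015 for Csnk1d, -0.14 to 0.17 for Csnk1e, -0.10 to 0.41 for Timeless, -0.038 to 0.47 for Bhlhe40 and -0.56 to 0.017 for Rps2.

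Of the medians of 32 gene lists, 11 kept their sign in all 20 alternatives: REV-ERB and ROR receptors, PAR bZIP factors, period and cryptochrome repressors, cold-inducible genes, macrophages and stroma on the positive side, and heat shock, cholesterol, interferon, respiratory chain and epithelium on the negative side. The other 21 changed sign in 1 or more, and the cause was not tested. Among these, cell division came to 0.0756 and type 2 effectors to 0.21 with voom, and leaving out 1 library spread erythroid genes over -2.17 to 0.50 and T cell genes over -0.31 to 0.47. The median over all genes was -0.092, and lay at -0.038 with RLE size factors.

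Leaving out 1 library moved 45 of the 117 gene values and 30 of the 32 list medians by over 1.5 times, or turned them, with heat shock and cold-inducible genes as the other 2 lists. The medians then spread over 0.19 to 0.38 for period and cryptochrome repressors (lowest without ILC2 ZT4 replicate 1), 0.30 to 0.66 for PAR bZIP factors (highest without ILC2 ZT23 replicate 2), 0.41 to 0.91 for macrophages (lowest without ILC3 ZT4 replicate 1), -0.41 to -0.16 for cholesterol (nearest 0 without ILC2 ZT4 replicate 1), -2.33 to -0.26 for epithelium (nearest 0 without ILC3 ZT23 replicate 2) and -0.52 to -0.0044 for the respiratory chain (nearest 0 without ILC3 ZT23 replicate 2). Among genes, C1qc came to 0.37 without ILC2 ZT4 replicate 1.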

Other observations

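Genes of gastric and duodenal gland mucus appeared in both replicate 2 libraries of ZT4 and almost nowhere else among the 8 libraries of the step. Tff2, a trefoil peptide, stood at 0 and 62.5 CPM in ILC2 at ZT4, against 0 and 0 CPM in ILC2 at ZT23, and at 0 and 163 CPM in ILC3 at ZT4, against 0 and 0.626 CPM in ILC3 at ZT23. Muc6, a gel-forming mucin of the same glands, stood at 0 and 28.8 CPM in ILC2 at ZT4, against 0 and 0 CPM in ILC2 at ZT23, and at 0 and 87.5 CPM in ILC3 at ZT4, against 0.218 and 0.063 CPM in ILC3 at ZT23. They are named here after their values were seen. The collagen gene Col14a1 was likewise highest in ILC3 ZT4 replicate 2, at 20.3 CPM.

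Across the 4 times, the genes with the smallest p did not all follow the clock genes. From ZT4 to ZT23, the means of Adamdec1 were 36.2, 14.1, 10.9 and 7.94 CPM in ILC2, and 118, 31.6, 54.3 and 40.4 CPM in ILC3, so that ILC3 at ZT4 stood apart from each of the other times. Those of Mmp9 were 27.4, 19.2, 7.09 and 9.54 CPM in ILC2 and 83.2, 19.2, 40.8 and 27.8 CPM in ILC3 at the same times. These means are on the scale of all 15 libraries.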
